A study of Chlorocebus sabaeus with 3 samples.

Results

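DNA replication genes were followed in the cell-free RNA of amniotic fluid from 3 vervet monkey (Chlorocebus sabaeus) pregnancies. The 34 genes listed cover origin licensing, the replication fork, nucleotide supply and the control of S phase, and were found by their names in the first column of each file. Of these, 33 were found among the 33994 genes of the files, and POLD1 was not analysed here. The RNA came from amniotic fluid supernatant, the fluid left once cells are spun down, so it derives from cells that had released it and not from a counted population. The study assessed the fetal transcriptome in this fluid with RNA sequencing. Each status has 1 library, from 1 pregnancy labelled stillborn with sex M, 1 labelled as a spontaneous abortion with sex NA (called the abortion library here) and 1 labelled alive with sex F. The labels used here give neither gestational age nor a treatment, and status cannot be told apart from sex or from the animal.

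DNA replication starts in 2 steps that the cell cycle keeps apart. First the origin recognition complex, with CDC6 and CDT1, loads the ring of MCM2 to MCM7 onto DNA, which licenses the origin. In S phase CDC45 and GINS join that ring to make the active helicase, polymerases copy the strands on the sliding clamp PCNA, and LIG1 seals the pieces of the lagging strand. Many of these genes are switched on by E2F transcription factors and are low in resting or differentiated cells, so they are widely read as markers of proliferation, as in fetal tissues.

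Depth was 17749954 assigned reads in the stillborn library, 29926352 in the abortion library and 20220899 in the alive one. Values are RPKM, reads scaled to gene length and library depth, and whole read numbers, each a lower bound, were recovered from their steps. Members had 7 to 954 reads in the stillborn, 97 to 3114 in the abortion and 39 to 2479 in the alive library. Ratios between libraries were scaled by trimmed mean of M-values (TMM) and carry an exact 95% interval that covers counting error only. A gene was counted as apart at a ratio of at least 2-fold, with an interval that excludes 1 and at least 30 reads in the higher library. With 1 sample per status, each comparison sets library against library, without a test, and the 3 comparisons share their libraries. In bulk fluid, fewer cells of a type and less RNA per cell cannot be told apart.

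The replication genes were at their lowest in the stillborn fluid. Their summed RPKM was 128 in the stillborn, 259 in the abortion and 310 in the alive library, or 0.0294%, 0.0679% and 0.0777% of the summed RPKM of all genes. Against the alive library the scaled sum was 2.17-fold lower in the stillborn and 1.16-fold lower in the spontaneous abortion. After scaling, 26 of the 33 genes stood in the order stillborn, spontaneous abortion, alive from low to high. Of the 28 averaging RPKM 1 or more, 22 did so, while 27.3% of the 10229 genes that pass that limit showed this order. The exceptions were ORC6, CDC45, GINS1, GINS3, RFC3, RFC4 and RFC5.

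**Figure D1:**
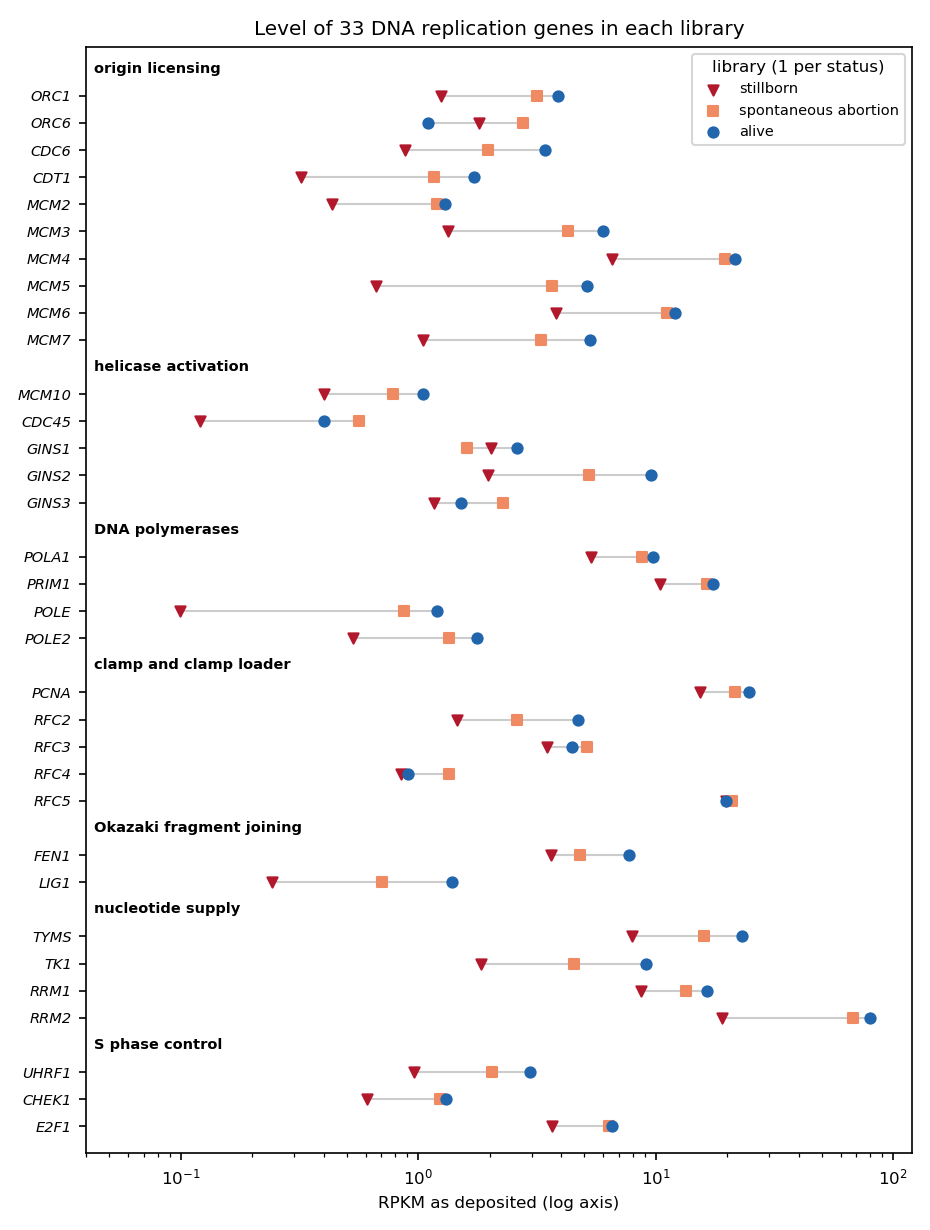
RPKM as deposited (log axis) of 33 DNA replication genes, grouped by role, with 1 point for each library and no error bars, since each status has 1 library. The stillborn point lies lowest for most genes, while the 3 points of RFC5 lie together, between 19.8 and 21.0, and ORC6 is lowest in the alive library.

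In the alive library RRM2, the regulated small subunit of ribonucleotide reductase, led the group at RPKM 79.9, which was 25.8% of its sum. PCNA followed at 24.7, thymidylate synthase TYMS at 23.0 and the helicase subunit MCM4 at 21.6. At the lower end stood MCM10 at 1.05, RFC4 at 0.905 and CDC45, a part of the active helicase, at 0.402. The spontaneous abortion library was led by RRM2 as well, at 67.8. In the stillborn library RFC5, a subunit of the clamp loader, stood first at 19.8, just above RRM2 at 19.1. The RPKM of RRM2 over that of RFC5 was 4.05 in the alive, 3.22 in the abortion and 0.962 in the stillborn library.

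Levels of different genes depend on the gene length behind the RPKM, which the labels and files do not state. The lengths implied by the steps had a median of 2682 bases over 3082 protein-coding genes with 1 transcript in the RefSeq table, and of 19196 bases over 2353 genes with 5 or more. They exceeded the whole span of the gene in that table for 8.34% of 9403 genes. Among the members they ran from 1534 bases for RRM2 to 16455 for MCM10. Orders between genes are therefore given as listed, while ratios of 1 gene between libraries do not contain the length.

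Set against the alive library, 20 of the 33 genes were counted as lower in the stillborn library and 0 as higher. The same rule called 7.81% of all 21583 genes with a read in either library as lower and 8.2% as higher, and 8.83% and 9.5% of those averaging RPKM 1 or more. On the scale of total reads, which moves the median of all genes from -0.01 to -0.17, 22 members were lower and 0 higher, beside 10% and 6.71% of all genes. At 4-fold, 7 genes were lower, POLE, MCM5, LIG1, CDT1, MCM7, TK1 and GINS2, against a background of 2.02%. The median difference in log2(RPKM + 0.1) over the 28 members averaging RPKM 1 or more was -1.37, beside -0.01 over all genes at that limit. MCM2, MCM10, CDC45, POLE and LIG1 had a mean RPKM under 1 and stand outside this median. Over all 33 the median was -1.36. The median of the 28 was nearer 0 with log2(RPKM + 1), at -0.85, as was that of the 13 members averaging RPKM 5 or more, at -0.90.

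**Figure D2:**
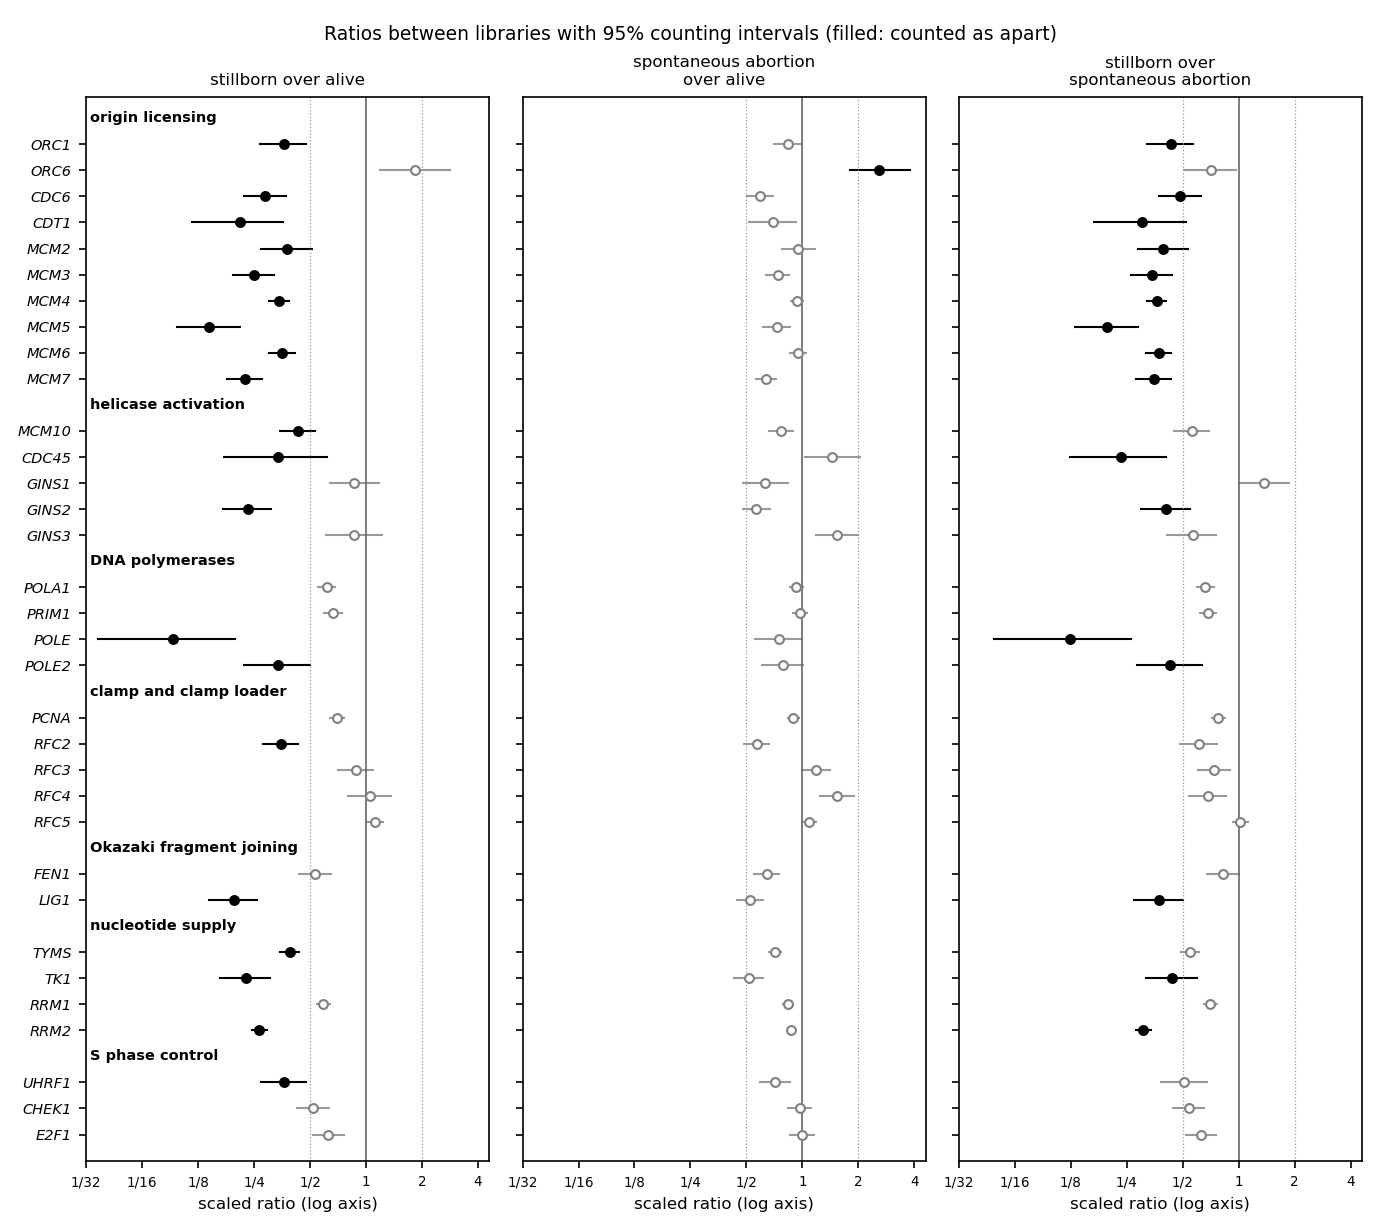
Scaled ratio of recovered reads (log axis) for each gene in the 3 comparisons, with bars for the exact 95% counting interval, filled points for genes counted as apart and dotted lines at 2-fold. In stillborn over alive 20 genes are filled, all on the low side, in spontaneous abortion over alive only ORC6 is, on the high side, and in stillborn over spontaneous abortion 16 are, all on the low side.

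Origin licensing, the role with the most genes listed, also had the most apart, 9 of 10, all lower, beside 7.81% of all genes called lower. That share also stands beside the counts of the other roles. The MCM2 to MCM7 ring, the motor of the replicative helicase, was lower in the stillborn library in all 6 subunits. MCM5 had RPKM 0.663 in the stillborn, 3.67 in the abortion and 5.16 in the alive library, from 31, 289 and 275 reads. The stillborn value stood far below both others, 6.96-fold below the alive one (4.79 to 10.4). MCM7 had 1.05, 3.28 and 5.29 and was 4.49-fold lower (3.62 to 5.61) than in the alive library. MCM3 had 1.34, 4.29 and 5.99, lower by a ratio that rounds to 4-fold but stays just under it (3.11 to 5.19).

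The other ring subunits differed by less. MCM4 had RPKM 6.53, 19.6 and 21.6 and was 2.95-fold lower (2.61 to 3.34). MCM6 had 3.81, 11.2 and 12.1 and was 2.84-fold lower (2.42 to 3.34), and MCM2 had 0.435, 1.20 and 1.30 and was 2.66-fold lower (1.95 to 3.69). The interval of MCM5 lay wholly beyond those of these 3 subunits, as did that of MCM7 beyond those of MCM4 and MCM6. In each library MCM4 was the highest and MCM2 the lowest of the 6, 15.0-fold apart in the stillborn, 16.3-fold in the abortion and 16.6-fold in the alive library. The implied length was 6866 bases for MCM2 and 2845 for MCM4.

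Of the loaders of the ring, CDT1, CDC6 and ORC1 went the same way. CDT1, which escorts the MCM ring to DNA, had RPKM 0.322, 1.16 and 1.71 and was 4.76-fold lower (2.79 to 8.65) in the stillborn than in the alive library, on 16 stillborn reads. CDC6, the ATPase that recruits it, had 0.880, 1.97 and 3.43 and was 3.48-fold lower (2.71 to 4.52). ORC1, the cell-cycle-regulated subunit of the origin recognition complex, had 1.25, 3.16 and 3.89 and was 2.78-fold lower (2.10 to 3.73). ORC6, the smallest subunit of that complex, was not lower in the stillborn than in the alive library. It had RPKM 1.80 in the stillborn, 2.77 in the abortion and 1.10 in the alive library, the lowest of the 3, and was 1.83-fold higher in the stillborn than in the alive library (1.19 to 2.83). Across both complex members, ORC1 over ORC6 in RPKM was 0.692, 1.14 and 3.53. The subunits outside the members were not lower and apart either. ORC2 was 1.25-fold higher (1.07 to 1.46), ORC3 1.59-fold (1.51 to 1.68) and ORC4 1.45-fold (1.15 to 1.81). ORC5 was 1.04-fold lower, with an interval that holds 1 (0.883 to 1.22).

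Helicase activation was mixed, with 3 of 5 genes apart. GINS2 had RPKM 1.97, 5.24 and 9.52 and was 4.32-fold lower (3.23 to 5.87) in the stillborn than in the alive library. Neither GINS1 nor GINS3, its partners in the same tetramer, was apart. GINS1 had 2.02, 1.61 and 2.61, a ratio of 1.16-fold lower with an interval that holds 1 (0.856 to 1.57). GINS3 had 1.17, 2.27 and 1.52, also 1.16-fold lower (0.822 to 1.64). The interval of GINS2 did not overlap either of theirs. CDC45 had RPKM 0.121, 0.563 and 0.402 from 14, 110 and 53 reads and was 2.97-fold lower (1.62 to 5.80). MCM10, which helps to activate the assembled helicase, had 0.401, 0.782 and 1.05 and was 2.33-fold lower (1.89 to 2.90).

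**Figure D3:**
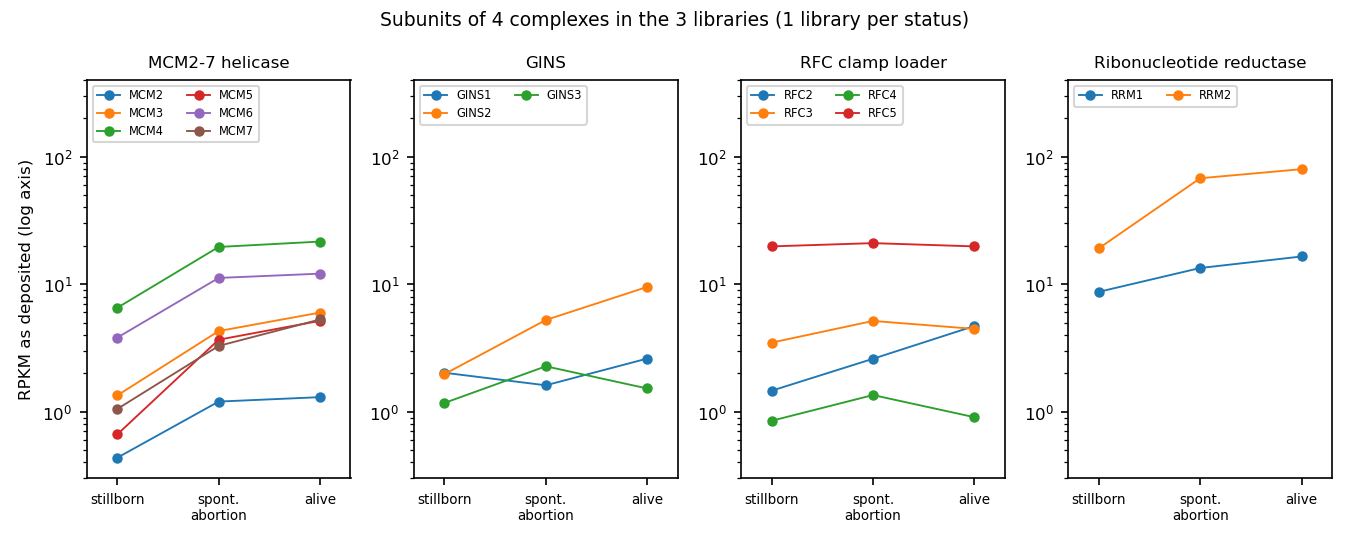
RPKM as deposited (log axis) of the subunits of 4 complexes in the 3 libraries, with 1 line per gene that joins its 3 values and carries no order in time. The 6 MCM lines all start lowest in the stillborn library, RRM2 runs from 19.1 to 79.9 while RRM1 runs from 8.71 to 16.5, and RFC5 stays between 19.8 and 21.0.

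The 4 polymerase members found differed by unlike amounts. POLE, the catalytic subunit of the leading-strand polymerase epsilon, had RPKM 0.099 in the stillborn, 0.872 in the abortion and 1.20 in the alive library. It rested on 7 stillborn reads and was 10.9-fold lower than in the alive library, with a wide interval (5.08 to 27.8). POLE2, its accessory subunit, had 0.530, 1.35 and 1.76 and was 2.97-fold lower (2.00 to 4.53). PRIM1 and POLA1 differed by less than 2-fold. PRIM1, the primase that makes the RNA primers, had RPKM 10.4, 16.5 and 17.5 and was 1.51-fold lower (1.35 to 1.68). POLA1, the polymerase alpha subunit that extends those primers, had 5.35, 8.77 and 9.75 and was 1.63-fold lower (1.47 to 1.81). Subunits outside the members did not follow a split by enzyme. POLA2, of polymerase alpha, was 3.07-fold lower (2.52 to 3.77) and apart. POLE3 and POLE4, of polymerase epsilon, were 1.32-fold (1.11 to 1.59) and 1.17-fold lower (1.03 to 1.33), neither of them apart.

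The clamp and its loader differed least, with 1 of 5 genes apart. PCNA, the clamp that holds polymerases on DNA and also serves in DNA repair, had RPKM 15.4, 21.5 and 24.7 and was 1.44-fold lower (1.31 to 1.57) in the stillborn than in the alive library. RFC2 was the gene apart, at 1.46, 2.60 and 4.70 and 2.88-fold lower (2.32 to 3.6). The other loader subunits among the members stayed near equality. RFC1, a loader subunit outside the members, had 6.61, 10.7 and 11.6 and was 1.56-fold lower (1.47 to 1.66), not apart. RFC3 had 3.48, 5.15 and 4.46 and was 1.14-fold lower (0.923 to 1.42). RFC4 had 0.848, 1.35 and 0.905 and was 1.05-fold higher after scaling (0.802 to 1.36), with the direction turned when libraries were scaled to total reads. RFC5 had 19.8, 21.0 and 19.8 and was 1.12-fold higher (1.01 to 1.24).

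Of the pair that finishes Okazaki fragments, LIG1, the ligase that seals them, had RPKM 0.242, 0.706 and 1.39 and was 5.15-fold lower (3.85 to 7.01) in the stillborn than in the alive library. FEN1, the flap nuclease that trims the primers, had 3.64, 4.80 and 7.69 and was 1.89-fold lower (1.55 to 2.3), just short of the 2-fold limit. Both were lowest in the stillborn and highest in the alive library.

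In nucleotide supply, 3 of 4 genes were apart. RRM2 had RPKM 19.1, 67.8 and 79.9 from 519, 3114 and 2479 reads and was 3.75-fold lower (3.41 to 4.13) in the stillborn than in the alive library. RRM1, the large subunit of the same enzyme, had 8.71, 13.4 and 16.5 and was 1.70-fold lower (1.57 to 1.84). RRM2 over RRM1 was thus 2.19 in RPKM in the stillborn, 5.05 in the abortion and 4.83 in the alive library. The stillborn library held less RRM2 RNA relative to RRM1 RNA than both others, and the subunit proteins were not measured. TK1, the cytosolic thymidine kinase of S phase, had 1.83, 4.54 and 9.06 and was 4.41-fold lower (3.27 to 6.07). TYMS, which makes thymidylate, had 7.96, 15.9 and 23.0 and was 2.58-fold lower (2.3 to 2.89).

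Among the genes of S phase control, 1 of 3 was apart. UHRF1, which guides maintenance of DNA methylation behind the fork, had RPKM 0.957, 2.04 and 2.96 and was 2.76-fold lower (2.10 to 3.68) in the stillborn than in the alive library. The checkpoint kinase CHEK1 had 0.610, 1.24 and 1.31 and was 1.92-fold lower (1.58 to 2.35). E2F1, a transcription factor of the replication program, had 3.66, 6.35 and 6.55 and was 1.60-fold lower (1.32 to 1.94). Its interval lay wholly inside 2-fold, as did those of GINS1, GINS3, POLA1, PRIM1, PCNA, RFC3, RFC4, RFC5 and RRM1, 10 genes in all. For 16 genes the interval lay wholly beyond 2-fold on the low side. Of the 528 pairs of members, 59.5% had intervals that did not overlap. These counts of intervals were not made over all genes, and the width of an interval depends on the reads behind it.

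Between the spontaneous abortion and the alive library, the replication genes differed by less, with a ratio under 1 for 27 of the 33. Of the 28 members averaging RPKM 1 or more, 23 had a log2 difference below 0, as did 5157 of the 10229 genes at that limit. None of the 33 was counted as lower and 1 as higher, against 3.53% and 4.75% of the 22440 genes with a read in either library, and 3% and 4.04% of those averaging RPKM 1 or more. Both counts are near those shares. The median difference in log2(RPKM + 0.1) over 28 members was -0.26, beside -0.01 over all genes averaging RPKM 1 or more. The interval lay below 1 for 18 members, above 1 for 5 and held 1 for 10. Of the 22440 genes with a read in either library, it lay below 1 for 5352 and above 1 for 5503. For 26 members it lay wholly inside 2-fold, a count not made over all genes. The gene counted as higher was ORC6, 2.58-fold above the alive library (1.80 to 3.78).

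The MCM ring was within counting error of the alive library in 3 subunits. MCM2 was 1.05-fold lower (0.861 to 1.28), MCM4 1.07-fold lower (0.992 to 1.15) and MCM6 1.05-fold lower (0.955 to 1.16). MCM7 was 1.57-fold lower (1.39 to 1.77), MCM5 1.37-fold (1.16 to 1.62) and MCM3 1.36-fold (1.18 to 1.57). For these the interval lay below 1, with none reaching 2-fold. Outside the ring, TK1 was 1.94-fold lower (1.62 to 2.33), LIG1 1.92-fold (1.63 to 2.26), GINS2 1.77-fold (1.49 to 2.10) and RFC2 1.76-fold (1.51 to 2.05). CHEK1, at 1.03-fold lower (0.899 to 1.19), and E2F1, at a ratio of 1 (0.87 to 1.16), did not differ beyond counting error. GINS3 was 1.53-fold higher (1.18 to 2.00), RFC4 1.53-fold (1.24 to 1.90) and CDC45 1.44-fold (1.03 to 2.04).

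Set against the spontaneous abortion, 16 members were lower in the stillborn library and 0 higher, beside 4.61% and 4.65% of 22510 genes, and 3.78% and 4.49% of those averaging RPKM 1 or more. On the scale of total reads these were 18 and 0 members, beside 5.88% and 3.91% of all genes. The median was -0.83, and -0.02 over all genes averaging RPKM 1 or more. POLE was 8.09-fold lower (3.79 to 20.6), MCM5 5.08-fold (3.50 to 7.61) and CDC45 4.28-fold (2.45 to 8.09). These 3 passed 4-fold, against a background of 1.01%. RRM2 was 3.27-fold lower (2.98 to 3.59). ORC6 was lower here as well, 1.41-fold (1.03 to 1.96). GINS1 was 1.37-fold higher (1 to 1.86), and RFC5 was level at 1.02-fold higher (0.936 to 1.12), which turned when libraries were scaled to total reads.

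Other genes of the pathway, from a list of 48, were less uniform. In the stillborn against the alive library 12 were lower and 1 higher, beside 7.81% and 8.2% of all genes. The median of the 41 averaging RPKM 1 or more was -0.27, beside -0.01 over all genes at that limit. TICRR, which brings CDC45 to the licensed ring, had RPKM 0.496 in the stillborn, 1.10 in the abortion and 3.01 in the alive library and was 5.43-fold lower (4.12 to 7.26). GINS4, the remaining GINS subunit, had 3.66, 6.17 and 15.0 and was 3.66-fold lower (3.21 to 4.19), near GINS2. SAMHD1, which breaks down deoxynucleotides and is abundant in myeloid cells, was the gene on the high side. It had 3.25, 0.942 and 0.633 and was 5.75-fold higher (4.66 to 7.15). Macrophage markers summed to RPKM 61.5, 13.6 and 19.9 in the same libraries. That sum was lowest in the abortion library, while SAMHD1 was lowest in the alive library. Whether macrophage RNA has a part in the SAMHD1 values was not tested. The highest means over the 3 libraries were those of DCTPP1, a nucleotide pyrophosphatase, at 26.7, 35.6 and 50.3, and of POLE4, a small histone-fold subunit, at 19, 18.3 and 24.9. In the spontaneous abortion against the alive library 4 of the 48 were lower and 1 higher, beside 3.53% and 4.75% of all genes. Among these, TICRR was 2.66-fold lower (2.25 to 3.15) and GINS4 2.37-fold lower (2.16 to 2.59).

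Of 20 S phase regulators, 6 were lower and 1 higher in the stillborn against the alive library, beside 7.81% and 8.2% of all genes. E2F7, a repressor of the E2F family, was 5.59-fold lower (3.6 to 9.07) and E2F2, an activator, 4.36-fold lower (2.92 to 6.71), both from RPKM of 1.10 or less in every library. CCND1, the cyclin D1 that responds to growth signals, was at 17.2, 6.99 and 4.17, 4.62-fold higher (3.86 to 5.56). The highest means over the 3 libraries were those of TFDP1, the dimerisation partner of E2F proteins, at 23.0, 23.5 and 23.0, and of the kinase WEE1, at 16.9, 28.2 and 22.3. In the alive library CDK2, the kinase of S phase entry, at 25.9, and its cyclin CCNA2, at 25.3, stood above both.

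Of 20 mitosis genes 19 were lower in the stillborn against the alive library, beside 7.81% of all genes, and the median was -1.57. AURKB, a kinase of chromosome segregation, was 7.18-fold lower (4.51 to 12), CDC20, an activator of the anaphase-promoting complex, 4.82-fold (3.68 to 6.41) and the kinesin KIF20A 4.72-fold (4.01 to 5.59). The highest means over the 3 libraries were those of cyclin CCNB2, at RPKM 10.3, 23.9 and 41.2, and of TOP2A, the topoisomerase of dividing cells, at 8.59, 23.6 and 36.3. In the spontaneous abortion against the alive library 1 mitosis gene was lower, beside 3.53% of all genes, and the median was -0.55, beside -0.01 over all genes.

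Of 10 CDK inhibitors and quiescence genes 1 was lower and 1 higher, with a median of 0.02, near the 7.81% and 8.2% of all genes. The inhibitor CDKN2B had RPKM 7.62, 9.01 and 2.52, 3.38-fold higher (2.79 to 4.12) in the stillborn than in the alive library, and CDKN2D had 1.93, 2.77 and 4.84, 2.24-fold lower (1.56 to 3.28). By mean over the 3 libraries CDKN1C, an imprinted inhibitor of fetal growth, was highest at 41.2, 47.3 and 38.1. GADD45A, a stress-response gene, came next at 46.5, 38.2 and 32.6, above CDKN1C in the stillborn library. Of 12 DNA repair polymerases and ligases 1 was lower and 0 higher, with a median of 0.03, which is likewise near those shares. LIG3, the ligase of base excision repair and mitochondria, was 2.34-fold lower (2.10 to 2.61). Its scaffold XRCC1 had 78.1, 56.2 and 80.8, and the repair polymerase POLB had 6.28, 5.61 and 6.03.

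**Figure D4:**
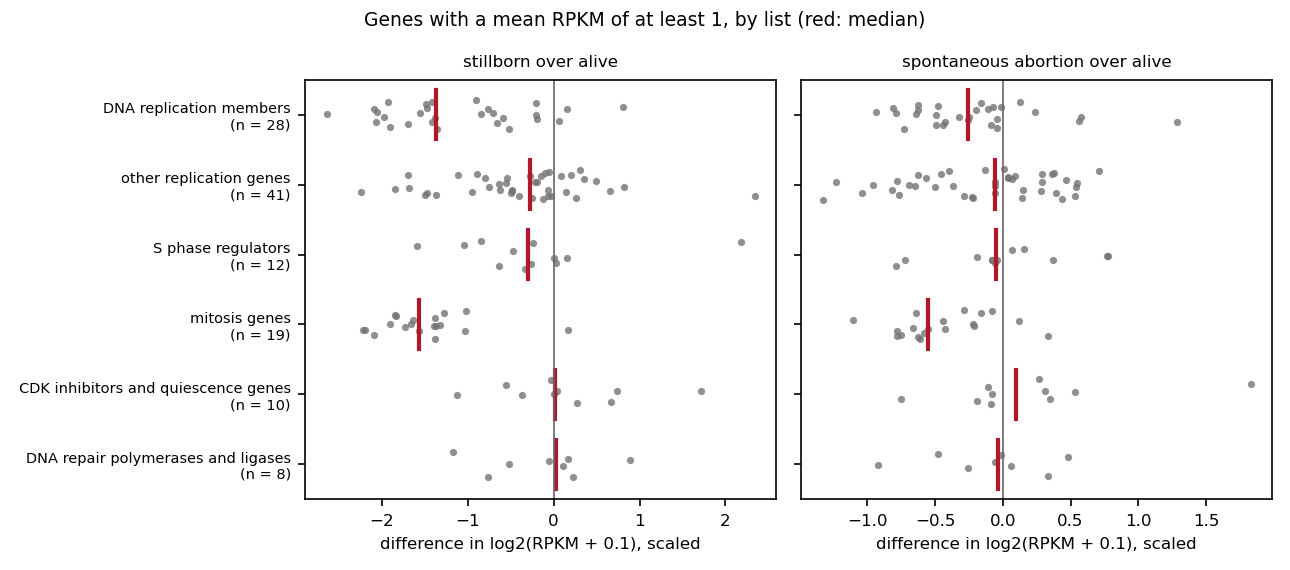
Difference in log2(RPKM + 0.1) after TMM scaling for genes averaging RPKM 1 or more in 6 lists, for stillborn over alive (left) and spontaneous abortion over alive (right), with 1 grey point per gene and a red line at the median. The medians of replication members (-1.37) and mitosis genes (-1.57) lie low in stillborn over alive, while those of the repair list (0.03) and of CDK inhibitors (0.02) lie at 0.

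Markers of cell types also differed between the fluids, and their part in the differences above was not tested. Simple epithelial markers, 10 of 10 found, summed to RPKM 474, 623 and 783 in the stillborn, abortion and alive libraries. KRT19 carried most of that sum, at 316, 434 and 554, while EPCAM ran the other way at 12.5, 5.69 and 5.97. In stillborn over alive 1 gene of this list was lower and 1 higher, near the 7.81% and 8.2% of all genes, and its median was -0.01. Squamous markers, 12 of 14, summed the opposite way at 993, 560 and 363. KRT6A was the largest part of these sums in the stillborn library, at 588, 254 and 135. KRT5 ran against the list at 49.1, 151 and 151. Macrophage markers, 12 of 13, summed to 61.5, 13.6 and 19.9. FCER1G, CD68 and LYZ carried most of the stillborn sum, at 20.8, 14.9 and 12. In stillborn over alive 7 genes of this list were higher and 0 lower, beside 8.2% and 7.81% of all genes. CD14, at 1.33, 0.165 and 1.44, and CSF1R, at 0.393, 0.346 and 0.339, were not apart. Neutrophil markers, 11 of 12, summed to 50.7, 39.8 and 107, with MPO and ELANE at 0 in all 3 libraries. LTF made up most of that sum, at 33.3, 36.4 and 105. S100A8, at 7.11, 0.519 and 0, and S100A9, at 10.2, 2.81 and 1.1, ran the other way. Thus 2 neutrophil genes were higher and 1 lower in stillborn over alive, beside 8.2% and 7.81% of all genes. Lymphocyte markers summed to 4.01, 0.483 and 17.6, with CD3D, CD3E and MS4A1 at 0 in all 3. In the alive library nearly all of this was GNLY, at 8.84, and GZMB, at 8.44, while the T cell genes CD3G and CD8A had 10 and 12 reads in the stillborn library and 0 in both others. Progenitor markers summed to 0.895, 0.643 and 2.02, with SPN at 0 in both losses and CD34 at 0 in the alive library. FLT3 made up most of the alive sum, at 1.7, while GATA2 and LYL1 had 12 and 18 reads in the stillborn library and 2 and 1 in the alive one. Fibroblast markers were at 334, 373 and 272, and LUM made up most of that sum, at 222, 239 and 158. In stillborn over alive THY1, PDGFRB and POSTN were counted as lower and COL1A2 as higher, beside 7.81% and 8.2% of all genes. Trophoblast markers, 6 of 10, were at 102, 131 and 139, with PAGE4 and CYP19A1 (listed as LOC103245629) at 0 in all 3. KRT7 stands in both the simple epithelial and the trophoblast list. Erythroid markers, 9 of 11, were at 2.49, 3.48 and 1.05, with ALAS2 and KLF1 at 0 in all 3. TFRC, at 1.97, 1.14 and 0.829, made up most of the stillborn and alive sums. HBB (listed as LOC103247901), at 0.162, 1.82 and 0.213, made up most of the abortion sum. Genes averaging RPKM 1 or more were split by implied length into 3 groups of like size, for which the stillborn over alive median from the shortest to the longest was 0.03, 0.00 and -0.06 over all genes. Over the members it was -1.98, -1.38 and -0.76, from 4, 21 and 3 genes. In stillborn over spontaneous abortion the median of all genes ran from 0.14 in the shortest to -0.13 in the longest group. The part of length in the differences above was not tested.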

How the data were processed

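Cell-free RNA from amniotic fluid supernatant of 3 pregnancies was turned into cDNA by SPIA amplification, per the labels' protocols. Tools named in the submitters' processing notes are HTSeq, STAR and bcl2fastq 2.17. For the genome build, annotation, strand setting and RPKM step, nothing is stated (not given in the sources used here), so no coordinates are printed. The deposited values are RPKM, 1 per gene and library, with no replicates. Reads were recovered by solving for the library totals and gene lengths that make reads = RPKM × length × total whole within the printed digits. This held for 23274 of 23276 genes above 0. A factor shared by a gene's reads and its length cannot be seen, so reads are lower bounds, and they sum to 96.6% to 97.1% of the totals. TMM factors were 0.936 (stillborn), 1.02 (spontaneous abortion) and 1.05 (alive). Intervals are exact Clopper-Pearson 95% intervals, conditional on the sum of both libraries' reads, from scipy 1.17.1. Recovered reads do not tell amplified copies from separate molecules. The intervals therefore cover counting error of reads only and can be too narrow for molecules. The steps were tested on simulated reads. The planned count of promoter motifs was not run, since promoter sequences were not used here. Listed symbols absent from the files were looked up by RefSeq gene ID. Reads shared with paralogs, pseudogenes or overlapping genes cannot be told apart. All members are named, and of each other list the 3 genes with the largest ratio among those apart in stillborn over alive and the 2 with the highest mean RPKM. A few further genes are named beside members of their complex or for their level. Members and lists were chosen with earlier results of these data known, so their counts are descriptions and not independent support. Alternatives for scaling, depth, fold, read minimum, pseudocount and filter were computed.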

Additional observations from a re-analysis of the deposited data

How the results depend on the processing

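No paired analysis was possible because each status has 1 library. Counts of members apart stayed within 1.5 times under total reads, median-of-ratios factors, thinning to the smallest library, a minimum of 10 reads and no minimum, in all 3 comparisons. With a 4-fold limit 7 members were apart in stillborn over alive, 0 in spontaneous abortion over alive and 3 in stillborn over spontaneous abortion. The median for stillborn over alive was -0.85 with log2(RPKM + 1) and -0.90 over the 13 members averaging RPKM 5 or more. No median changed sign. Without H19 and IGF2 in the denominator the members' share was 0.0353% (stillborn), 0.0811% (spontaneous abortion) and 0.0886% (alive), and as a share of recovered reads it was 0.0389%, 0.0756% and 0.0915%, the stillborn lowest each time. On total reads the sign turned for RFC4 in stillborn over alive and for RFC5 in stillborn over spontaneous abortion, neither of them counted as apart. Depth limits POLE, CDC45 and CDT1, with 7, 14 and 16 stillborn reads.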
